A study of Homo sapiens and Mus musculus with 10 samples.

Results

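The regions described here are stretches of open chromatin that carried a peak in every human library and lay away from all annotated gene starts. They were found by merging the overlapping or touching peaks of the 8 human libraries on chromosomes 1 to 22 and X, then keeping merged regions with a peak in all 8 libraries and an edge more than 1 kb from every GENCODE release 44 transcript start of any gene type. Of 243174 merged regions, 20741 had a peak in all 8 libraries, and 12532 of these (60.4%) lay within 1 kb of a start site. The remaining 8209 regions are the members. They made up 39.6% of the regions shared by all libraries, 4.18% of all distal regions and 3.38% of all merged regions. The members were selected on the measured peaks and on distance, so neither their presence in all libraries nor their being distal is a result.

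The study profiled 4 human lines and a mouse line by short-read bulk ATAC-seq, in which the Tn5 transposase inserts adapters into accessible DNA, with 2 replicates of each line. GM12878 cells are B lymphocytes made immortal by Epstein-Barr virus, and K562 cells come from a chronic myeloid leukaemia and keep erythroid features. HFF1 cells are fibroblasts of the foreskin. HEK293T cells derive from embryonic kidney and express the SV40 large T antigen. The labels name no treatment. GM12878 and K562 grew in RPMI medium and HEK293T and HFF1 in DMEM, all with serum. The mouse libraries were not analysed here. Nothing in the labels says that replicates came from separate cultures, so p-values measure only the spread between these libraries, which may be technical. Of 7 marker genes set for each line, both of its libraries had a peak at the start of 7 in GM12878, 7 in HFF1, 6 in K562 (KLF1 lacked one) and 5 in HEK293T. HFF1 also had a peak at 5 of the 7 HEK293T markers, so these markers did not separate HEK293T from HFF1. The other lists were not exclusive either. GM12878 had a peak at 5 of the 7 HFF1 markers, and over all lists the other lines had one at 2 to 5 of 7. Hepatocyte and neuron genes, which none of the lines should use, had one at 3 of 7 in HEK293T and 4 of 7 in each other line.

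Distal open regions can be enhancers, insulators or other sites where proteins hold nucleosomes away. CTCF is a zinc finger protein that binds a long, GC-rich motif at many of the same places in most cell types and, with the cohesin ring, sets the ends of chromatin loops. AP-1, made of FOS and JUN family proteins, binds enhancers that differ between cell types and that respond to growth signals. CpG islands are stretches where CpG pairs are frequent, and most of them overlap gene starts.

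The CTCF consensus searched was CCA, 2 free bases, AG, 2 free bases and GGC, on both strands, within 50 bases on each side of the median summit of the 8 libraries. Among members that held it outside exons, with at least 95% of their 31-base words found once in the genome, the 4 shown had the highest fold rank in their lowest library. The fold is the authors' ratio of the signal at a summit to the background around it in the same library, with a constant added to both. Its rank is the percentile over the 20741 shared regions. Each window has 101 bases, is read on the plus strand of hg38 and has the match in capitals. The matches lie on the minus strand, so the capitals show the reverse complement of the consensus. The windows are chr21:15483306-15483406 in an intron of a non-coding gene, 7238 bp from the start of CYCSP42, chr3:141192394-141192494 between genes, 35993 bp from PXYLP1, chr2:3303739-3303839 in an intron of a protein-coding gene, 1815 bp from EIPR1-IT1, and chr4:56544679-56544779 in an intron, 12468 bp from THEGL.
Member near CYCSP42: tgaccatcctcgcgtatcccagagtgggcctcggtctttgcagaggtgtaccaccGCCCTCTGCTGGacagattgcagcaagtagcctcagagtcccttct
Member near PXYLP1: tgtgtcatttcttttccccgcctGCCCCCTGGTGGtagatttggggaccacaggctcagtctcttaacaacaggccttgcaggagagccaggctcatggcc
Member near EIPR1-IT1: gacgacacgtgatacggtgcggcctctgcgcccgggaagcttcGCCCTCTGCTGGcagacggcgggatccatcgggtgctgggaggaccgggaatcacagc
Member near THEGL: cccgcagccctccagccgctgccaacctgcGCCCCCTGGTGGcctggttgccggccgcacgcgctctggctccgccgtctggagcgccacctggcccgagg

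In the member near CYCSP42 the deposited fold was 23.4 and 23.4 in GM12878, 17.9 and 19.7 in HEK293T, 15.6 and 15.3 in HFF1 and 13.7 and 14.8 in K562. By fold the GM12878 libraries were highest and the K562 libraries lowest there, and the 4 lines did not overlap. The background was 1.12 and 1.19 reads in HEK293T and 1.82 to 3.03 in the other lines. The constant in the fold weighs most at a low background, so this order describes the fold alone. The summits of its 8 peaks lay within 36 bp of each other.

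Members with other sequence content are shown by 4 more windows, chosen by the same rank. The AP-1 window, chr4:51895940-51896040 in an intron of a protein-coding gene and 3045 bp from the start of DCUN1D4, has TGANTCA in capitals and is 1 of 69 members that held CTCF and AP-1 matches together. The ETS window, chr5:142025053-142025153 between genes and 11655 bp from GNPDA1, has the reverse complement of CCGGAAGT in capitals. The same window also held a match to CCAATNAG, the motif of the CCAAT-box factor NFY. The REST window, chr5:176837760-176837860 in an intron of a protein-coding gene and 24635 bp from the start of UNC5A, has 2 copies of AGCACC, 2 free bases and GGACAG in capitals. The bases around the 2 copies also repeat. REST is a repressor of neuronal genes, and UNC5A encodes a netrin receptor of neurons. The REST motif occurred in 14 members (0.171%), against 0.13% of all distal regions and 0.745% of those with a peak in 7 libraries. The last window, chr15:50003851-50003951 in an intron and 21150 bp from RNA5SP394, had none of the 17 motifs searched and stands for the 4954 members (60.3%) without one. It missed 1 of the 8 fixed bases of the CTCF consensus.
AP-1 window: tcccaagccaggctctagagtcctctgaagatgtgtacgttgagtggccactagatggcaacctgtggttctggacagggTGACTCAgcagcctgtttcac
ETS window: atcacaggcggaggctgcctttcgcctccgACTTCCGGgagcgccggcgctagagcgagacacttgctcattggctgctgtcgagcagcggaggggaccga
REST window: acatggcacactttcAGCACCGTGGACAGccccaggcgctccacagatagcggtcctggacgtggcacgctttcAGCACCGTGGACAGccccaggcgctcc
Window without a motif: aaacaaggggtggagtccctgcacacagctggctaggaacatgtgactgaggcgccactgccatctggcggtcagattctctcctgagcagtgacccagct

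The window without a motif had a fold between 16.6 and 21.8 in the 8 libraries, and ranked above 96.1% of the 20741 shared regions in its lowest library. The REST window, with folds of 9.63 to 13.6, had a lowest rank of 53.4%.

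Of the 17 motifs, the CTCF consensus had the highest share among members. It occurred in the summit window of 2484 members (30.3%). Among distal regions with a peak in fewer libraries the share was 1.77% with 1 library, 1.41% with 2, 6.60% with 3, 7.15% with 4, 15.4% with 5, 18.9% with 6 and 28.1% with 7. Among the shared regions within 1 kb of a start site it was 5.72%. The consensus read backwards, which has the same bases in another order, occurred in 8 members (0.097%). Read backwards it opens with a fixed CpG, which the consensus lacks, so this share may understate chance matches. Over all 243174 regions the share with the consensus was 4.58%. Within the members the share lay between 27.9% (2 to 5 kb) and 32.5% (20 to 50 kb) in every distance class.

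A further 3471 members matched the consensus at 7 of its 8 fixed bases, which is 60.6% of the 5725 members without an exact match. This looser search was added after the data had been seen. With it, 5955 members (72.5%) had an exact match or 1 missed base, against 13.4% of distal regions with a peak in 1 library, 17.3% of those with 1 to 7, 67.4% of those with 7, and 26.7% of the shared regions near start sites. The backward consensus with 1 missed base occurred in 5.03% of the members without an exact match and in 2.25% of the other distal regions without one. A match is a description of the letters and does not show that CTCF was bound.

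The exact matches sat close to the point of greatest signal. Of the 2484 members, 2471 had a single match. Its centre lay a median of 11 bp from the median summit, and 81.3% of the single matches lay within 20 bp. Matches with 1 missed base were placed alike, with a median of 10.5 bp and 79.5% within 20 bp. The single matches fell on the plus strand in 1233 members (49.9%). Of 2448 neighbouring pairs of such members on a chromosome, 25.7% pointed towards each other, 25.5% away from each other and 48.8% the same way. Of the 44 pairs under 10 kb apart, 20 pointed the same way, 19 away from each other and 5 towards each other.

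The AP-1 motif TGANTCA was less frequent in members than in other distal regions. It occurred in 376 members (4.58%), against 11.3% of distal regions with a peak in 1 library, 17.5% with 2, 17.0% with 3, 19.8% with 4, 12.6% with 5, 13.1% with 6 and 5.89% with 7. Where a distal region had a peak in both libraries of 1 line and nowhere else, the share was 17.7%. The backward motif, a measure of chance matches, also occurred less often in members, in 1.53% against 3.10% of distal regions with 1 to 7 libraries, where the motif itself occurred in 15.4%. Motifs of factors that mark blood lineages were also less frequent in members than in all distal regions. The GATA motif AGATAAG, bound by the erythroid factor GATA1 among others, occurred in 0.646% of members and 2.19% of all distal regions. The RUNX motif TGTGGTTT occurred in 0.938% and 2.17%, and the PU.1 motif GAGGAAGT of B-cell and myeloid enhancers in 0.816% and 1.79%. The TEAD motif CATTCCA, used downstream of YAP1, occurred in 1.16% and 2.38%. Their backward words were less frequent in members too, at 0.463% against 0.897% of distal regions with 1 to 7 libraries for GATA, 0.365% against 0.399% for RUNX, 0.365% against 0.622% for PU.1 and 0.256% against 0.424% for TEAD. In distal regions with 7 libraries the motifs occurred in 0.779% for GATA, 0.948% for RUNX, 0.779% for PU.1 and 1.42% for TEAD. The low shares of GATA, RUNX and PU.1 were thus not particular to members. The part of base composition in the differences between members and other distal regions was not tested.

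Motifs typical of promoters were rarer in members than in shared regions near start sites. The SP/KLF motif GGGGCGGGG occurred in 117 members (1.43%) and in 14.2% of the shared regions near start sites. The NFY motif CCAATNAG occurred in 1.46% and 5.70%, the ETS motif CCGGAAGT in 0.378% and 4.80%, and the NRF1 motif GCGCATGCG in 0.146% and 1.17%. The YY1 motif AAGATGGCG occurred in 0.439% of members, 1.36% of shared regions near start sites and 0.112% of all distal regions. The CREB motif TGACGTCA occurred in 23 members (0.28%, against 1.70% near start sites), the USF motif TCACGTGA in 6 (0.073% against 0.878%), the RFX motif in 5 (0.061% against 0.12%) and the ZNF143 motif ACTACAATT in 4 (0.049% against 0.271%). Compared with distal regions with 1 to 7 libraries, 6 of these motifs were more frequent in members. The shares in those regions were 0.402% for SP/KLF, 0.139% for ETS, 0.033% for NRF1, 0.098% for YY1, 0.175% for CREB and 0.039% for RFX. NFY (1.63%), USF (0.117%) and ZNF143 (0.065%) were less frequent in members than there. The p53 motif, 2 copies of CATG with 6 free bases between them, was sought in the same way and occurred in 17. Only 265 members (3.23%) held 2 or more different motifs. In members the backward words of ETS (0.451%), CREB (0.487%), USF (0.256%) and ZNF143 (0.061%) were more frequent than the motifs. The ETS, CREB and USF motifs hold a CpG and their backward words hold none, so the backward words do not measure chance matches to them. Matches to these motifs were thus not told apart from chance ones. One fixed word per factor also misses weaker sites.

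**Figure D1:**
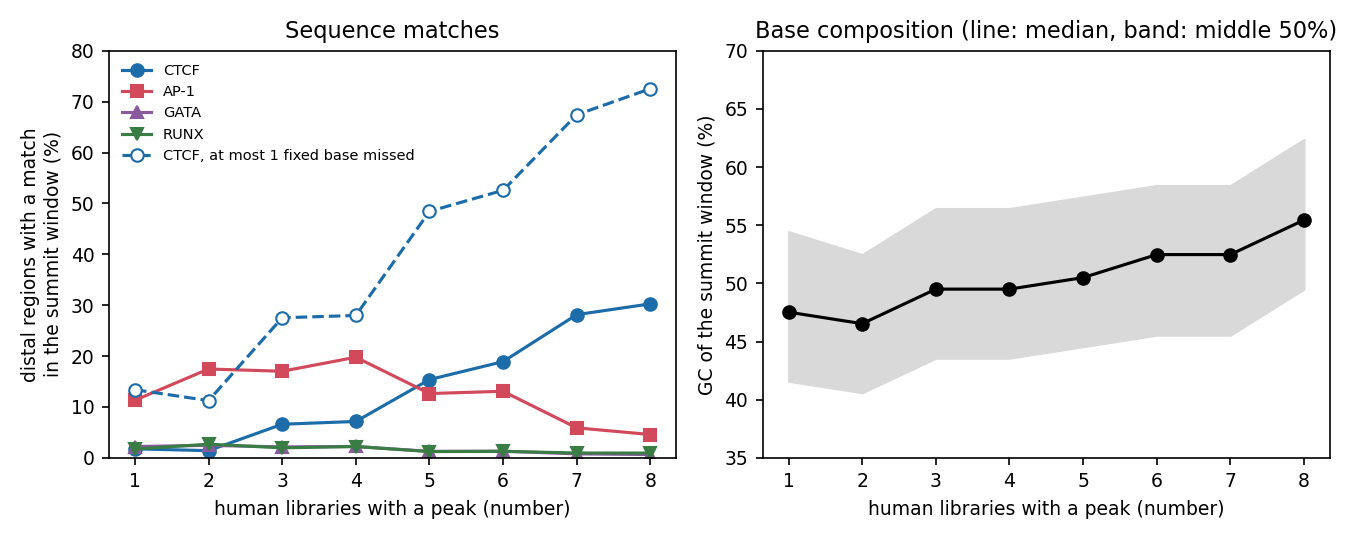
Left, percentage of distal regions with a match in the 101-base summit window against the number of human libraries with a peak, for 4 motifs and for the CTCF consensus with at most 1 fixed base missed. Right, GC percentage of the same window, with the median as a line and the middle 50% as a band. The CTCF share reached 30.3% at 8 libraries while the AP-1 share fell to 4.58%, and the median GC was 55.4% at 8 libraries.

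Members were richer in G and C than other distal regions and poorer than promoters. The median GC of the summit window was 55.4% in members (5th to 95th percentile 41.6% to 74.3%), 47.5% in distal regions with a peak in 1 library and 69.3% in the shared regions near start sites. The medians for 2 to 7 libraries were 46.5%, 49.5%, 49.5%, 50.5%, 52.5% and 52.5%. The CpG content relative to that expected from the C and G content was 0.328 in members, 0.175 in distal regions with 1 library and 0.871 near start sites. A window without any CpG was found in 14.3% of members, 37.4% of distal regions with 1 library and 1.49% of shared regions near start sites. Merged regions of at least 200 bp with GC of at least 50% and a CpG ratio of at least 0.6, called CpG-rich here, numbered 785 among members (9.56%), against 80.4% near start sites and 0.7% of distal regions with 1 library. Members with and without the CTCF consensus had like composition, with a median GC of 56.4% and 55.4% and a CpG ratio of 0.321 and 0.334.

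The rise in GC was local. In members with the consensus, GC averaged 56.0% over the central 100 bases and 46.5% over the outer 100 bases on each side of a window of 1 kb. In those without it the values were 56.5% and 46.4%. Distal regions with a peak in 1 to 7 libraries went from 48.0% to 43.1%, and shared regions near start sites from 68.4% to 57.0%. The profile of members had a step about 80 bp from the summit. In members without the consensus, GC was 49.8% in the bases from -90 to -81 and 52.9% in those from -80 to -71, and in distal regions with 1 to 7 libraries it went from 43.1% to 45.9% over the same bases. The step stood at the same distance in members with the consensus, and on the other side of the summit, and its source was not tested.

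**Figure D2:**
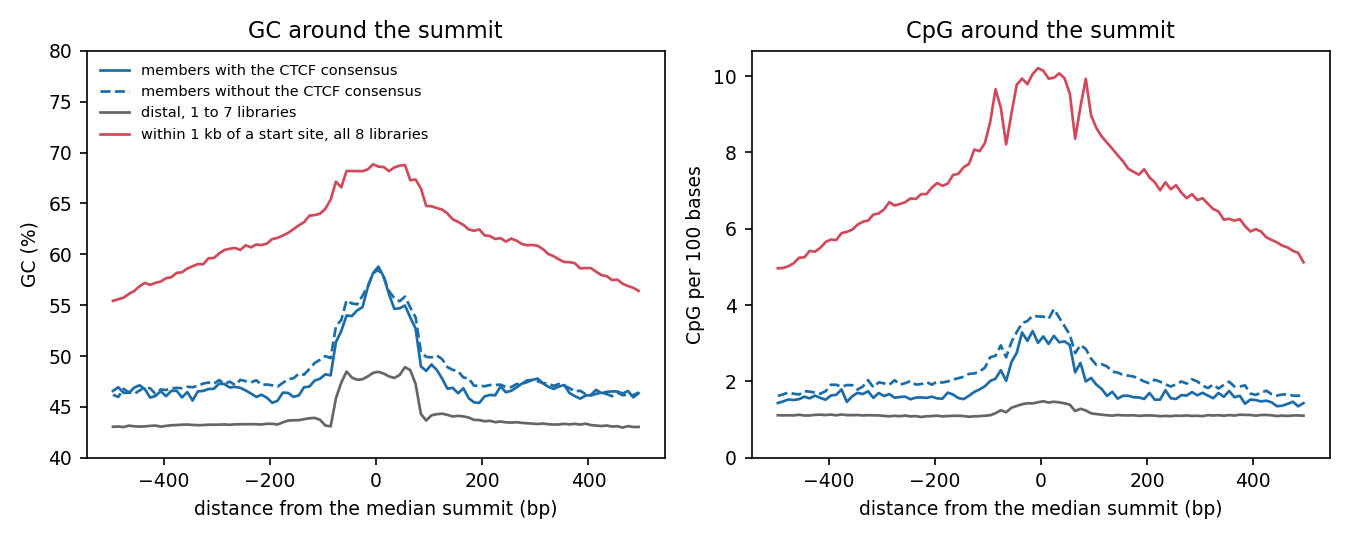
GC percentage (left) and CpG pairs per 100 bases (right) in bins of 10 bases against the distance in bp from the median summit, for members with and without the CTCF consensus, other distal regions and shared regions within 1 kb of a start site. Members reach 56.0% and 56.5% at the centre, between the other distal regions and the regions near start sites, and the members and other distal regions share a step near 80 bp.

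Most members lay within 20 kb of a gene start. The median distance to the nearest start site was 9087 bp, against 12068 bp for distal regions with a peak in 1 to 7 libraries, and to the nearest protein-coding start 16722 bp against 25853 bp. Of the members, 9.23% lay 1 to 2 kb away, 20.3% at 2 to 5 kb, 24% at 5 to 10 kb, 22.9% at 10 to 20 kb, 17.8% at 20 to 50 kb and 4.78% at 50 to 100 kb. The remaining 86 (1.05%) lay more than 100 kb from any start. Their centres fell between genes in 44.3% of cases and in introns of protein-coding genes in 38.9%, whereas other distal regions fell between genes in 34.6% and in such introns in 47.5%. Exons of protein-coding genes held 5.08% of members, introns of other genes 10.1% and exons of other genes 1.63%.

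The members nearest to the limit lay 1001 bp from MYO15B, 1001 bp from RBM38 and 1003 bp from PARP14. The nearest shared regions on the other side lay 998 bp from a non-coding gene, 997 bp from GNAT1 and 997 bp from GSDME. At the far end, chr3:93470287-93470860 lay 372904 bp from RNU6-488P and 415553 bp from PROS1, the gene of protein S. It was also the member with the highest lowest rank, at 98.7% or above in every library, and had a summit-window GC of only 20.8%. Of its 31-base words, 83.6% occurred once in the genome. Its peaks measured 539 to 568 bp in the 8 libraries. No filter for regions of artefact signal was applied here, so open chromatin was not told apart from an artefact at this member. The next farthest, chr6:90940795-90941378, lay 353709 bp from MAP3K7, a kinase of inflammatory signalling. There the fold was 18.7 and 18 in GM12878, 9.63 and 9.63 in HEK293T, 4.38 and 5.72 in HFF1 and 8.42 and 9.06 in K562, so the GM12878 libraries were highest and the HFF1 libraries lowest.

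Other members with high ranks in all libraries lay in an intron 40421 bp from ATP8B4 (chr15:50003593-50004253, lowest rank 96.1%), in an intron 39270 bp from ATP9B (chr18:79246247-79246911, 96.8%) and 40763 bp from UBE2Q2 (chr15:75801940-75802544, 94.8%). The member near CYCSP42 whose sequence is shown above had a lowest rank of 95.2%. Of these 4, it alone had an exact CTCF match.

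Members were spread over all 23 chromosomes. The 8186 gaps between neighbours had a median of 139504 bp and a mean of 356596 bp. The median distance to the nearest other member was 62154 bp. Gaps under 10 kb numbered 521 (6.36%) and those under 1 kb 44, while 568 exceeded 1 Mb. The longest stretch of known sequence without a member ran from 84730410 to 100671230 on chromosome X, 15940821 bp. Next came a stretch on chromosome 9 with 12587968 known bases and one of 12533468 bp on chromosome 5. Density was lowest on chromosome X, with 1.45 members per Mb, and 1.51 on chromosome 18, and highest on chromosomes 17 and 19, with 4.18 and 4.15. Over the 23 chromosomes it followed the density of protein-coding genes (Pearson r 0.706, Spearman rho 0.745, given as a description, since chromosomes share the same libraries).

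**Figure D3:**
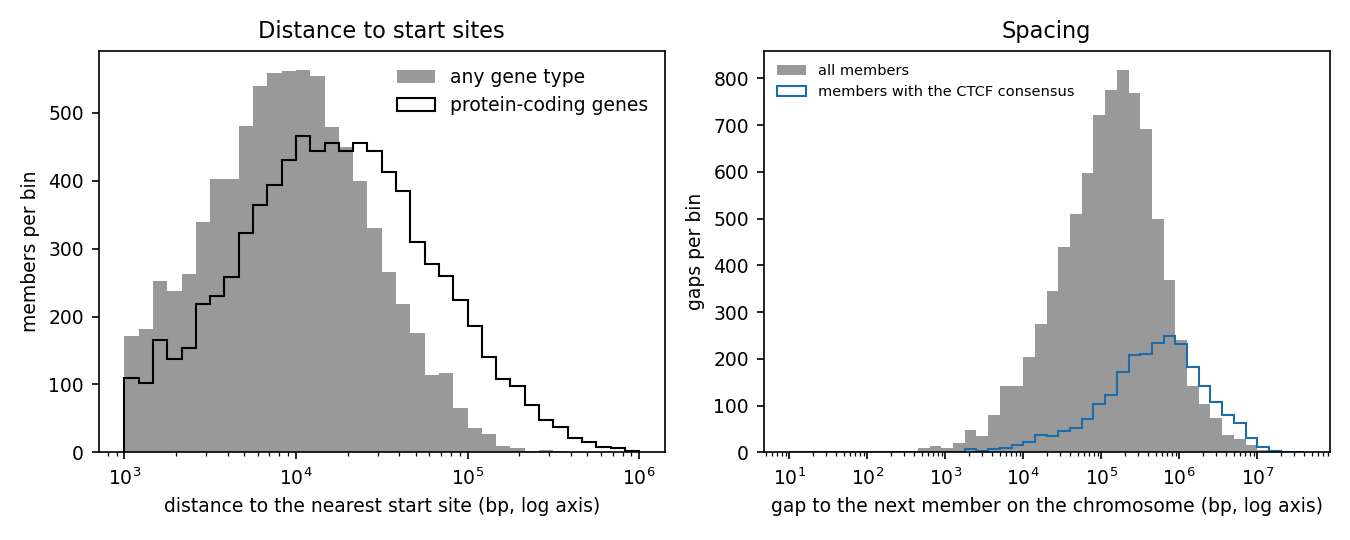
Left, number of members by distance in bp to the nearest start site of any gene type (filled) and of protein-coding genes (outline), on a log axis from the 1 kb limit of the rule. Right, gaps in bp between neighbouring members on a chromosome, log axis, for all members and for those with the CTCF consensus. The distances centre on 9087 bp and 16722 bp and the gaps between all members on 139504 bp.

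The densest cluster lay on chromosome 2 between TEX44 and PTMA, the gene of prothymosin alpha, a small acidic nuclear protein. The 100 kb window from 231600001 to 231700000 held 10 members, and no other window held more than 5. No annotated protein-coding gene start and no shared region near a start lay in it. The members spanned 86.0 kb, from 231601699 to 231687748. Exact CTCF matches occurred in 2 of the 10. The summit-window GC ranged from 58.4% to 83.2%, and at least 94.5% of the 31-base words of each member occurred once in the genome. The median fold of the 10 was 7.29 and 7.09 in GM12878, 7.98 and 8.32 in HEK293T, 7.45 and 7.65 in HFF1 and 6.55 and 6.28 in K562. Their median fold rank was thus low, between 14.5% and 28.2% of the shared regions. The read pileup and local background, recovered as described below, were not low throughout. In GM12878 replicate 1 the pileup was 49 to 138 reads over a background of 3.51 to 19.7, against member medians of 52 and 3.24. In K562 replicate 1 it was 16 to 71 reads over 2.21 to 9.42, against 38 and 3.35. Of the 6262 windows with a member, 4710 held 1 and 328 held 3 or more. Windows with 5 members included one at TACC1 on chromosome 8 and one at HMGN4, ABT1 and BTN1A1 on chromosome 6.

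The merged regions had a median width of 518 bp (5th to 95th percentile 271 to 1068 bp) and covered 4.71 Mb, against a median of 1087 bp for shared regions near start sites, 290 bp for distal regions with 1 to 7 libraries and 440 bp for those with 7. Merged width can only grow with the number of libraries merged. Exactly 1 peak in every library made up 7249 members (88.3%). A base covered in all 8 libraries existed in 8090 members (98.6%), over a median stretch of 190 bp, and 119 members had none. The 8 summits lay within 50 bp of each other in 4331 members (52.8%), with a median range of 48 bp, and more than 500 bp apart in 209. Among the widest members, one measured 2519 bp near ZMIZ1 and one 2470 bp near SOX4, a transcription factor of progenitor cells, the latter with no base covered in all libraries. Members that had neither an exact CTCF match nor one with 1 missed base numbered 2254. They had a median merged width of 588 bp against 497 bp for the other 5955, and a median summit range of 66 bp against 45 bp. CpG-rich regions made up 17.3% of these 2254.

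The libraries differed in depth and in how often they lacked a peak at regions open elsewhere. A whole-number read pileup and a local background reproduced both the deposited fold and the deposited -log10 p-value of all 20741 shared regions in each library to within 1 part in 1000. The fold was taken as the pileup plus 1 over the background plus 1. The added 1 lowers the fold most where the background is low. The lowest background, which rises with depth, was 1.71 and 1.73 reads in GM12878, 0.465 and 0.466 in HEK293T, 2.43 and 2.06 in HFF1 and 2.21 and 1.97 in K562. The HEK293T libraries were thus the shallowest. The added 1 weighs most in them, and its part in fold differences between lines was not tested. Distal regions with a peak in the 6 libraries of the other lines numbered 12444 for HEK293T, of which 2607 (20.9%) had a peak in neither HEK293T library. The same count was 10676 for HFF1 (17.6% in neither), 9564 for K562 (8.75%) and 9184 for GM12878 (8.26%). Of the 2953 distal regions with a peak in exactly 7 libraries, 1628 (55.1%) lacked 1 HEK293T library. The part of depth in these counts was not tested.

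Peaks at members had a higher fold than other distal peaks of the same library. The median fold was 11.5 and 11.7 in GM12878, against 6.81 and 6.78 at other distal regions. It was 9.80 and 9.63 against 7.36 and 7.43 in HEK293T, 9.23 and 9.20 against 6.12 and 6.27 in HFF1, and 8.53 and 8.43 against 5.61 and 5.73 in K562. This follows in part from the rule, since a region needs a peak in every library, and no test was made. The share of a library's distal peaks that fell in members was 11.3% and 11.1% in GM12878, 27.2% and 28.0% in HEK293T, 8.97% and 9.64% in HFF1 and 16.0% and 18.2% in K562, and was largest in the libraries with the fewest peaks.

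Peaks at members were widest in GM12878. Their median width was 405 and 405 bp in GM12878, 260 and 256 bp in HEK293T, 300 and 281 bp in HFF1 and 274 and 259 bp in K562. The lines explained a share of 0.989 of the variation of these 8 medians (eta squared, exact one-sided permutation test over 105 pairings, p = 0.019, smallest possible p 0.0095). Replicates of a line differed by at most 19 bp, less than the gap between GM12878 and the next line, and the HEK293T and K562 libraries overlapped. At other distal regions the medians were 263 and 263 bp, 208 and 205 bp, 288 and 279 bp and 226 and 224 bp in the same order, so peaks at members were 1.54 and 1.54 times as wide in GM12878 but only 1.04 and 1.01 times as wide in HFF1. The names of the GM12878 peaks carry another prefix than those of the other 3 lines, and a preparation that goes with it cannot be told apart from the line.

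Members were then divided by sequence, which gave 4 comparisons. They were tested over the 8 libraries by exact two-sided sign flips (smallest possible p 0.0078), which count replicates of a line as separate units. The rule did not use sequence. The CpG-rich group, however, was set on merged regions of at least 200 bp, whose bounds come from the same peaks. The fold rank is the percentile of a region's fold within its library over the 20741 shared regions. Members with the CTCF consensus ranked higher than those without it by 3.2 and 3.1 points in GM12878. The differences were -1.44 and -0.061 in HEK293T, -1.82 and 0.093 in HFF1 and -2.22 and -1.89 in K562. The mean of -0.13 ± 2.19 points (SD, n = 8) was smaller than the spread between libraries (exact p = 0.812, Benjamini-Hochberg adjusted p = 0.883). Peak widths differed by 8 and 8 bp in GM12878, -5 and -9 bp in HEK293T, -33 and -23 bp in HFF1 and -16 and -15 bp in K562. The mean of -10.6 ± 14.3 bp (SD, n = 8) did not pass either (exact p = 0.086, adjusted p = 0.172). When members with 1 missed base were counted with the exact matches, they were narrower than the rest in 8 of 8 libraries, by a mean of 44.8 bp (mean difference -44.8 bp, exact p = 0.0078, added after seeing the data). The gap was then -104.5 and -95 bp in HFF1 and -6.0 and -7.5 bp in GM12878. It was -61 and -46 bp in K562 and -23 and -15 bp in HEK293T. Its size thus depended on the line. With line means as units the test cannot reach so low a p, a limit given below for the CpG-rich members. The p therefore describes these libraries and does not establish a difference across lines.

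CpG-rich members had wider peaks in every library. Their group was set in part by the width of the merged region, so it is not independent of peak width. Their median width was 498 and 511 bp against 398 and 399 bp in GM12878, 371 and 370 bp against 256 and 252 bp in HEK293T, 545 and 503 bp against 285 and 270 bp in HFF1, and 496 and 470 bp against 265 and 252 bp in K562. The difference averaged 173 ± 67.6 bp (SD, n = 8, exact p = 0.0078, adjusted p = 0.031). With the 4 line means as units the smallest p the test allows is 0.125, and that was its value. The fold rank of CpG-rich members was lower in GM12878, by -13.1 and -12.7 points, and higher in K562, by 11.4 and 12.6 points. It averaged -0.269 ± 9.62 points over the 8 libraries (exact p = 0.883, adjusted p = 0.883). The same members ranked 22.2 points higher by read pileup (exact p = 0.0078), where the fold is taken over a local background and the pileup is not.

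Some motifs ranked differently in different lines, but no difference passed the correction. Members with the AP-1 motif ranked 10.1 and 12.2 points above other members in HFF1 and 2.37 and 1.67 points above them in K562. Their differences were -7.13 and -7.50 points in GM12878 and -6.25 and -8.49 points in HEK293T. By read pileup the AP-1 members were again highest in HFF1, at 11.5 and 10.2 points. Members with the SP/KLF motif differed by -24.6 and -23.2 points in GM12878, -7.61 and -2.90 in HEK293T, -17.7 and -18.1 in HFF1 and 10.8 and 9.06 in K562. By read pileup they were 18 to 30.9 points higher in all 8 libraries, so their direction turned in the other 3 lines. Of the 8 motifs with at least 50 members, 0 had an adjusted p under 0.05 for a difference between lines, and 4 had an unadjusted p under 0.05 (exact one-sided permutation test of eta squared over 105 pairings). For SP/KLF eta squared was 0.99 with an exact p = 0.0095, the smallest possible, and adjusted p = 0.076. For AP-1 it was 0.989 with an exact p = 0.029 and adjusted p = 0.076. A motif alone at the smallest possible p cannot pass the correction over 8 motifs, so the absence of passing motifs is in part set by the design. With −log10 p ranked 3 motifs passed, and with pileup ranked 3. With either HEK293T library left out, 2 motifs, SP/KLF and AP-1, passed. These motif tests were added after the data had been seen.

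**Figure D4:**
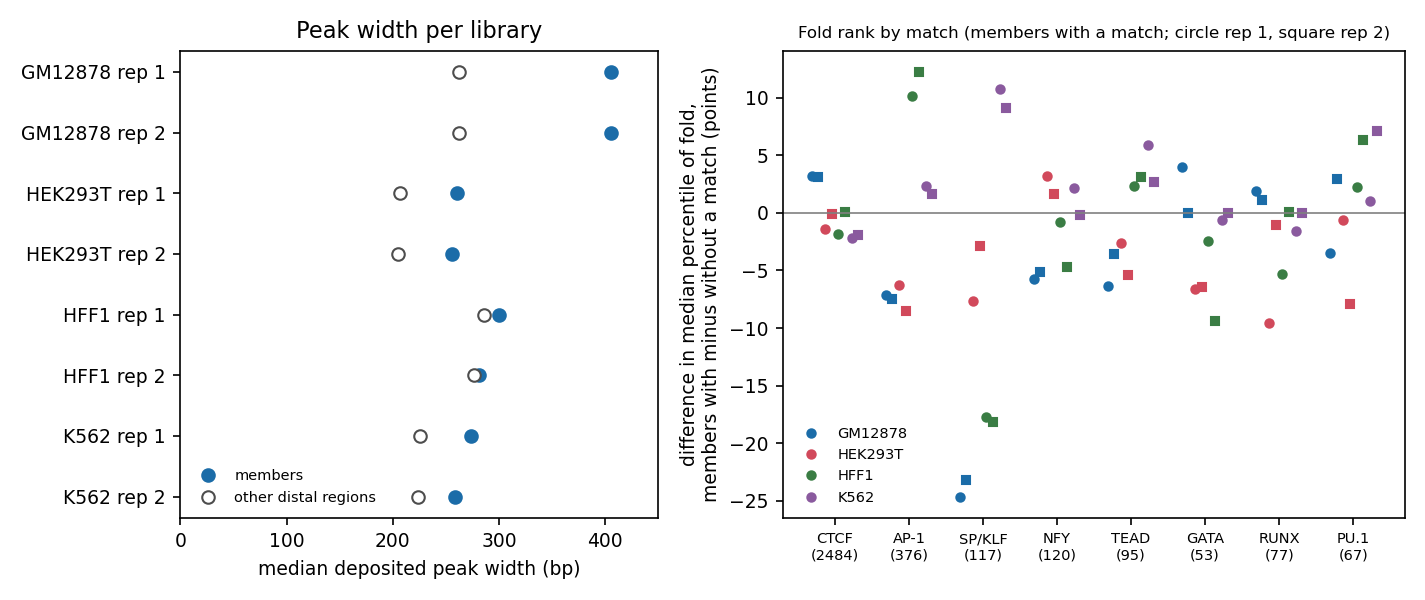
Left, median deposited peak width in bp at members (filled) and other distal regions (open) in each of the 8 libraries. Right, difference in the median within-library percentile of the fold between members with and without a match, in percentage points, per library for 8 motifs, with the number of members in brackets. GM12878 members are widest at 405 bp, and AP-1 members rank highest in HFF1.

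Members were called different between lines about as often as all shared regions. The fold ranks of all 20741 shared regions, as normal scores, were fitted with limma, and each line was compared with the mean of the other 3 (Benjamini-Hochberg adjusted p under 0.05 over all shared regions). Some difference between lines was called in 5893 members (71.8%), against 67.7% of all shared regions. With the read pileup ranked the share was 74.8% (6138 members) against 77.1%. GM12878 was higher in 2429 members and lower in 976, against 16.4% and 18.6% of all shared regions, which makes 29.6% and 11.9% of members. HEK293T was higher in 1327 and lower in 2086 (background 21.9% and 19.5%). HFF1 was higher in 1655 and lower in 1666 (background 17.1% and 17.2%). K562 was higher in 948 and lower in 1581 (background 15.8% and 14.9%). In GM12878, HFF1 and K562, leaving out a library of the line itself lowered the counts of members by over 1.5 times. The counts over all shared regions fell by over 1.5 times too. The HEK293T counts moved less. The line then rests on 1 library, which is assumed to vary like the others.

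The split between higher and lower calls depended on the scale. When members were ranked among themselves, GM12878 was higher in 1141 and lower in 1251, HEK293T in 1474 and 1411, HFF1 in 1464 and 1456 and K562 in 1101 and 1047. When the read pileup was ranked in place of the fold, GM12878 was higher in 1579 members (19.2%, against 20.3% of all shared regions) and lower in 1510 (18.4% against 18.9%), so its excess by fold was not seen. HEK293T was higher in 2737 (33.3% against 29.5%) and lower in 1851 (22.5% against 29.5%). HFF1 was higher in 1590 (19.4% against 21.2%) and lower in 1913 (23.3% against 21.7%). K562 was higher in 1169 (14.2% against 18.4%) and lower in 1639 (20.0% against 17.7%). The direction of the HEK293T imbalance thus turned. The part of the constant added in the fold in this turn was not tested. Of the members called lower in HFF1 by fold, 1137 (68.2%) were also called lower by pileup and 50 were called higher. For members called higher in GM12878 the counts were 850 (35%) and 72. Among the members with the AP-1 motif, HFF1 was higher in 128 (34.0%) and lower in 53, and HEK293T was lower in 139 (37.0%) and higher in 41. Of all members, HFF1 was higher in 20.2% and HEK293T lower in 25.4%.

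Single members show both patterns. In chr19:13833335-13834034, in an exon of a non-coding gene 2325 bp from MIR24-2, a microRNA gene, the fold was 8.07 and 8.49 in GM12878, 10.8 and 9.63 in HEK293T, 2.46 and 2.24 in HFF1 and 10.8 and 11.4 in K562. The HFF1 libraries lay below all others (limma difference of -3.68 ± 0.18 (SE) in normal scores, adjusted p = 8.67e-05). The pileup in HFF1 was nevertheless 77 and 63 reads, over a local background of 30.7 and 27.6 reads, where K562 had 84 and 81 reads over 6.87 and 6.18. Ranked by pileup, the HFF1 difference was -0.17 with a limma adjusted p of 0.339.

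In chr11:102268337-102269049, 41364 bp from YAP1, the coactivator of the Hippo pathway, HFF1 was low on both scales. The 8 summits of this member spanned 399 bp and no base was covered in all libraries, so its values come from peaks at different places. Its fold was 4.09 and 3.58 there, against 13.7 and 13.5 in GM12878, 16.8 and 15.4 in HEK293T and 14.6 and 14.6 in K562. The pileup was 19 and 15 reads in HFF1 and 99 and 92 reads in K562. The difference was -3.80 ± 0.19 (SE, limma adjusted p = 8.67e-05).

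**Figure D5:**
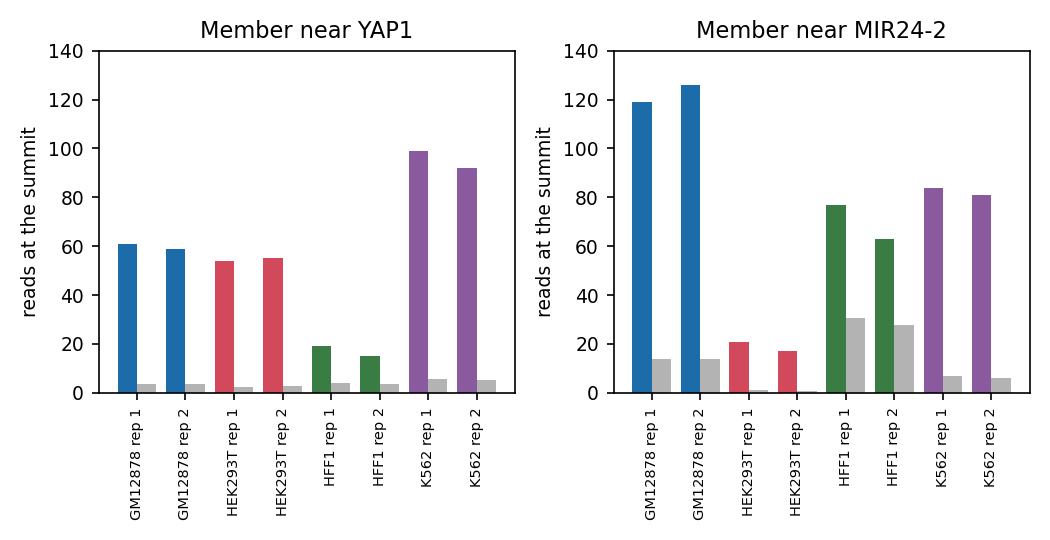
Recovered read pileup (coloured bars) and local background (grey bars) in reads at the summit of each library's strongest peak, for 2 members with a large HFF1 deficit in fold. Near MIR24-2 the HFF1 background is 30.7 and 27.6 reads, whereas near YAP1 the HFF1 pileup itself is low, at 19 and 15 reads.

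Members highest in HFF1 included chr4:169363138-169363830, 92182 bp from SH3RF1 and with an AP-1 match and 75.9% unique 31-base words, where the fold was 20.2 and 19.0 in HFF1, 8.11 and 9.88 in GM12878, 6.19 and 7.24 in HEK293T and 7.17 and 4.72 in K562. In GM12878 the largest excess was in chr4:186201678-186202180, in an exon 2201 bp from CYP4V2, a fatty acid hydroxylase. Its fold was 22.7 and 22.4 there and 6.93 to 10.9 in the other 6 libraries, but by pileup the adjusted p was 0.277. The largest GM12878 deficit was in chrX:47540776-47541523, 19682 bp from ARAF, a RAF kinase, with folds of 5.90 and 6.59 against 15.1 to 19.6. The member chr14:68824700-68825173, 28447 bp from ZFP36L1, a decay factor of AU-rich messages, held a CTCF match. It had folds of 4.09 and 3.17 in GM12878 over a background of 13.9 and 14.2 reads, and its adjusted p by pileup was 0.627.

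HEK293T stood highest in chr7:151992368-151992707, 2232 bp from GALNTL5, with folds of 20.6 and 21.5 against 4.76 to 9.59 elsewhere. It stood lowest in chr7:44477210-44477821, in an intron 3641 bp from NUDCD3, with 8.19 and 6.14 against 12.7 to 22.4. There HEK293T had only 11 and 8 reads over a background of 0.46 and 0.47, where the constant in the fold weighs most. K562 had 57 and 38 reads over 2.86 and 2.07. The size of this deficit in fold thus depends on the constant, though the call was kept with pileup ranked. K562 stood highest in chr18:77900057-77900706, 36490 bp from RNA5SP461, with 16.1 and 16.1 against 6.27 to 8.88. It stood low in chr9:613698-614194, in an intron 62724 bp from the nearest start of KANK1, with 4.99 and 5.39 against 10.5 to 17.7. One member, chr2:94266744-94267085, was both the second highest excess of HEK293T, with folds of 22 and 23.3, and the largest deficit of K562, with 5.61 and 5.73. Only 26.9% of its 31-base words occurred once in the genome, and the median word occurred 11 times, so reads from its copies cannot be told apart.

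Of all members, 5976 (72.8%) had every 31-base word once in the genome, 1353 had fewer than 95% and 80 had fewer than 50%. None shared a word with the mitochondrial genome. Without the 1353 the CTCF share was 30.0%.

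Members lay near genes of many functions. Of 19970 protein-coding genes, 9160 (45.9%) had a member within 50 kb of a start. The share is the background for the lists below, which hold 14 to 20 genes each, or 7 for the marker lists, and differ in how many regions surround their genes. Of the cohesin and CTCF genes 6 of 14 had a member, with 3 at CTCF itself and 2 each at RAD21, a cohesin subunit, and MAU2, which helps to load cohesin. Of immediate early genes, which growth signals switch on without new protein, 13 of 20 had one, with 3 at EGR1 and 2 each at FOS, FOSB, JUNB, JUND, BTG2 and IER5. Of stress response genes 10 of 15 had one, with 4 each at HSPA8, DNAJB1 and DDIT4. Of cytoskeleton and adhesion genes 11 of 15 had one, including ACTB and TUBA1B with 2. Of translation genes 9 of 15 had one, including EIF4G1 with 2, and of neuronal genes known as REST targets 11 of 18, with 3 at KCNH2 and 2 each at SYN1, GRIN1, VGF and STX1A. Markers of single lines had members too, in 4 of 7 for GM12878, 4 of 7 for HFF1, 2 of 7 for K562 and 2 of 7 for HEK293T, and so did 4 of 7 hepatocyte and neuron genes. The genes with the most members, 7 each, were CDH23, SH3PXD2A, SLC25A48, TACC1 and TEX44.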

How the data were processed

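Peak lists of 8 human ATAC-seq libraries (4 lines, 2 replicates each) were analysed. Per the submitters' processing notes, cutadapt 3.2, Bowtie2 2.4.2, Picard and MACS2 2.2.7.1 were used with hg38 for human data. The read shift and the length to which reads were extended are not given in the sources used here. Each list gives, as deposited, peak bounds, summit, score, fold, −log10 p and −log10 q, called per library. The fold is a ratio of summit over local background, with a constant added to both. The lowest deposited −log10 q was 2.0 to 2.05. The deposited score was not used.

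Peaks that overlapped or touched were merged. The peak with the highest −log10 p stood for a library in a region. Distances run from a region's edge to the nearest transcript start. Pileup and background were recovered as the whole number and the background that gave both the fold and the Poisson p. Windows of 101 bases around the lower median summit were searched for 17 words on both strands. Fold ranks were fitted with limma 3.58.1 in R 4.3.3 and checked on simulated data, and other values used Python 3.11.15. The members, gene lists and tests were chosen with earlier results of these data known. Regions, genes and sequences were named by rules on rank, distance, width and line differences, with exons and chromosomes 8 and 18 left out of the printed sequences. Replicate numbers did not pair the libraries (correlations of deviations from -0.013 to 0.014). Alternatives covered merging, distance, threshold, window, consensus, ranking and each library left out. Some of the regions that these rules name are not reported here.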

Additional observations from a re-analysis of the deposited data

Results flagged for a closer look

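On contigs that are not placed on a chromosome, which the rule leaves out, 13 of 220 merged regions had a peak in all 8 human libraries. They lay on 7 contigs and were not analysed further. Of the 243174 merged regions on the chromosomes used here, 20741 had a peak in all 8. The contig regions are listed because they had a peak in every human library outside those chromosomes. Neither copies of their sequence nor artefact signal was checked, so open chromatin was not told apart from an artefact there.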

How the results depend on the processing

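The CTCF share of members, 30.3%, was 21.2% with a consensus that also limits the free bases, 31.4% in a window of 100 bases on each side, 31.5% among members with exactly 1 peak per library and 72.5% with at most 1 fixed base missed. Beyond 5 kb from a start site, median GC was 54.5%, the distance 13781 bp and the spacing 214995 bp. At a −log10 q of at least 5 the spacing was 148521 bp. The number of members was 8318 to 9066 when 1 library was left out.

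The difference in fold rank with the CTCF consensus, -0.13 points, turned to 0.386 with the stricter consensus and 0.0994 in the wider window, and ranged from -0.606 to 0.169 with 1 library left out. It was -2.30 with −log10 p ranked (exact p = 0.0078) and -1.96 with pileup ranked (exact p = 0.031). The width difference was -44.75 bp with 1 missed base allowed and -13.3 to -7.43 bp with 1 library left out (exact p from 0.047 to 0.172, lowest without either GM12878 library). For CpG-rich members the rank difference turned to 0.173 where a base shared by all libraries was required, 16.2 by −log10 p and 22.2 by pileup, and ranged from -2.11 to 1.56 with 1 library left out. Their width difference was 173 bp with the 4 line means as units (exact p = 0.125).

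Members higher in GM12878 numbered 1341 by −log10 p, 1579 by pileup and 1141 with members ranked alone, and 971 to 2824 with 1 library left out. Those lower in GM12878 numbered 1510 by pileup and 375 to 1133 with 1 left out. HEK293T was higher in 2324 by −log10 p (28.3% against 24.8%) and 2737 by pileup (33.3% against 29.5%). With 1 left out, HFF1 was higher in 803 to 1916 and lower in 827 to 1875, and K562 higher in 448 to 1167 and lower in 764 to 1915. K562 was lower in 1047 with members alone. Motifs that differed between lines numbered 0, against 3 by −log10 p, 3 by pileup and 0 to 2 with 1 library left out. Refits of the named line differences kept call and direction in 318 cases and lost the call in 3, near CYP4V2, ZFP36L1 and MIR24-2, all with pileup ranked. The cause of these changes was not tested, beyond the fold and pileup being different quantities.

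Replicate numbers share only a number. With the replicate block, the CpG-rich width difference of 173 bp had an exact p of 0.5, the smallest that block allows. With it 5875 members (71.6%) differed between lines, against 66.2% of all shared regions. The block moved no count of calls by over 1.5 times.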
